A study of Mus musculus with 2 samples.

Results

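The 70 genes described here are the mouse replication histone genes, chosen as the table entries whose symbol starts with Hist, a cluster number and a code for linker histone H1 or for H2A, H2B, H3 or H4. They were 70 of 46095 entries, and the rule used the symbols and no measured value. By class there were 6 H1, 20 H2A, 19 H2B, 12 H3 and 13 H4 genes. Of the 70, 67 had at least 1 count, and 56 averaged 1 CPM or more over both libraries. CPM is a gene's count relative to the scaled size of its library. These 56 are called measured below. The entries Hist1h2aa, Hist1h2ba and Hist3h2bb-ps had 0 counts in both libraries, and Hist1h2aa and Hist1h2ba are known as testis variants.

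RNA was sequenced from leukaemia-initiating cells of mouse acute myeloid leukaemia, with 1 library labelled P2X1-KO and 1 labelled wild type (WT). The cells were sorted from bone marrow by Mac1 and KIT, and the C57BL/6 mice were 8 weeks old. P2X1 is an ATP-gated cation channel on blood cells. The protocol text adds the names of a scrambled control and of a knockdown, so the labels leave knockout and knockdown unresolved. The labels do not say how many mice gave each library. With 1 library per label, no difference below has a replicate check, and the ratios carry intervals for counting error alone.

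Replication histones package newly copied DNA, and their genes are switched on together as a cell enters S phase. An octamer of H2A, H2B, H3 and H4 forms the nucleosome core, and H1 binds the linker DNA between nucleosomes. Their messenger RNAs mostly end in a conserved stem-loop in place of a poly(A) tail. Stem-loop binding protein attaches there and guides cleavage, export, translation and decay. Most of the genes lie in a large cluster on mouse chromosome 13, with smaller groups on chromosomes 3, 11 and 6.

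The library labelled P2X1-KO held 9447894 counts and the library labelled WT 14658620. The targeted gene went against the labels: P2rx1 had 45 counts (5.07 CPM) in the library labelled P2X1-KO and 27 counts (1.73 CPM) in the library labelled WT, a ratio of 2.93 (exact 95% interval 1.78 to 4.90). Every direction below is thus a difference between a library labelled P2X1-KO and a library labelled WT. The marker genes of the sort were present, with Itgam at 504 CPM in the library labelled P2X1-KO and 307 CPM in the library labelled WT, and Kit at 19.9 and 13.3 CPM in the same order. A gene is called higher or lower below if its CPM was 2-fold or more apart. Of the 13382 measured genes of the whole table, 15.5% were called higher and 14.0% lower.

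The 3' stem-loop is shown first because it defines how these transcripts end. A 16-base motif, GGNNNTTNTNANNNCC, was searched on the sense strand after the stop codon of the annotated transcripts (GENCODE M21, mm10). It was found in 46 of the 67 members annotated as protein coding, starting 21 to 58 bases after the stop codon. The annotated transcripts of the other 21 do not show the motif, and many of them stop at the coding end. Within the first 100 bases after the stop codon, the motif stood in 26 of 31 members with that much sequence (83.9%) and in 35 of 19894 other protein-coding genes (0.176%). In the sequences below, written 5' to 3' as DNA, capitals mark the 16-base stem-loop and 5 bases are given on either side.
Hist1h1c (chr13:23739507-23739532, plus strand): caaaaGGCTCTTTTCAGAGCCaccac
Hist1h2ac (chr13:23683472-23683497, minus strand): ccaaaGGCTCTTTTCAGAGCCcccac
Hist1h2bk (chr13:22036295-22036320, plus strand): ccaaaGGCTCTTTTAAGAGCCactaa
Hist1h3a (chr13:23761885-23761910, minus strand): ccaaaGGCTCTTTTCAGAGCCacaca
Hist1h4c (chr13:23698084-23698109, minus strand): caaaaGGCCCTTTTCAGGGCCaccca
Hist1h4i (chr13:22040961-22040986, minus strand): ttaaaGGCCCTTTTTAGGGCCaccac
Hist2h4 (chr3:96262934-96262959, minus strand): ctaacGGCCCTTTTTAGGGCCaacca
Hist1h4j (chr13:21735432-21735457, plus strand): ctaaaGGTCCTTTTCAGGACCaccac
The motif itself sets the outer GG and CC and the letters TT, T and A between them, so every match shares these. The middle of the stem, which the motif does not set, differed between H4 and the rest. All 12 H4 stem-loops that were found began with GGCC or GGTC, and all 34 of the other classes began with GGCT. The form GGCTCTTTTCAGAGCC was the most frequent, in 10 H2A, 8 H2B, 5 H3 and 3 H1 genes.

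Messages of the histone genes were higher as a group in the library labelled P2X1-KO. Of the 56 measured members, 25 were called higher (44.6%), 3 lower (5.36%) and 28 neither, where 15.5% of all genes were called higher and 14.0% lower. Among the 27 members averaging 5 CPM or more, 13 were called higher and 0 lower, where 12.1% and 10.6% of all genes at that level were. Intervals lay wholly past 2-fold for 8 higher members and 1 lower member, where 10.2% and 7.75% of all genes did so. By sign alone 49 members were higher and 7 lower, where 47.2% of all genes were higher. The median log2 difference, computed on log2(CPM + 0.5), was 0.86 over measured members and -0.06 over all genes. Members together had 4419 counts in the library labelled P2X1-KO (0.0468% of its counts, exact 95% interval 0.0454 to 0.0482) and 4648 in the library labelled WT (0.0317%, 0.0308 to 0.0326). Their summed CPM was 1.67 times as high (1.60 to 1.74). In bulk RNA, a change in how many cells make histone message and in how much each cell makes cannot be told apart.

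**Figure D1:**
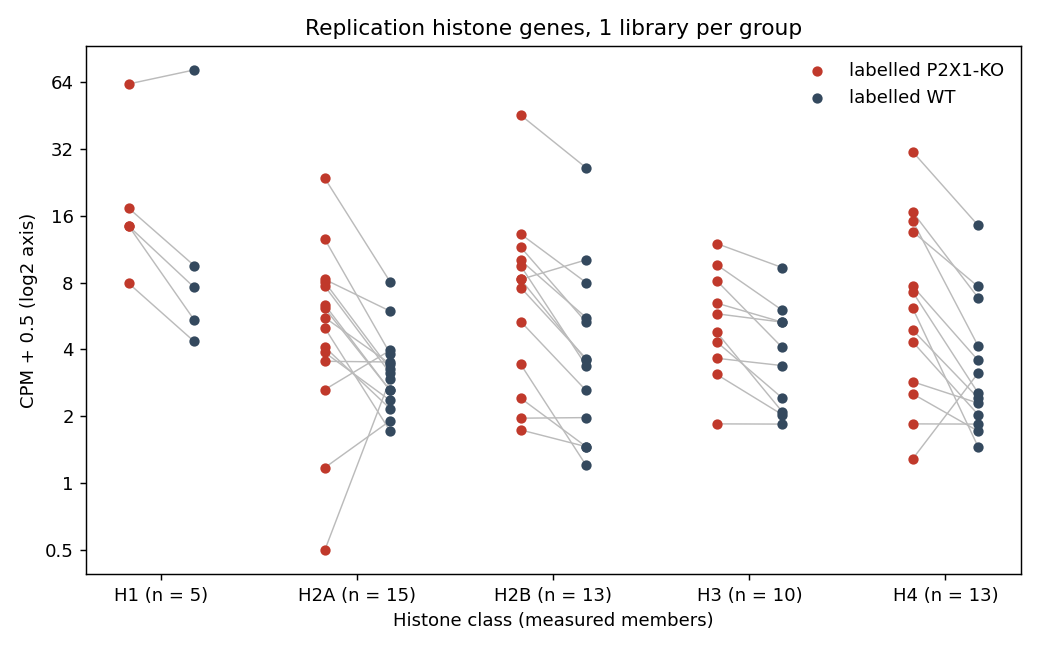
CPM plus 0.5 (log2 axis) of the 56 measured members by class in the library labelled P2X1-KO (red, left) and the library labelled WT (dark, right), with a grey line joining the values of 1 gene. Lines slope down from left to right for 49 members, and the highest H1 point, Hist1h1c, is slightly lower in the library labelled P2X1-KO.

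Transcript length moved with the log2 difference across the whole table, and histone transcripts are short. The longest annotated transcript had a median of 536.5 bases for measured members and 3098 bases for other genes. Other genes in the shortest of 20 length bins, at 54 to 625 bases, had a median log2 difference of 0.70, and 39.1% of them were called higher. Genes in the longest bin had a median of -0.48. The 23 measured members longer than the shortest bin had a median of 0.86. Other genes of 626 to 985 bases had 0.49 and those of 986 to 1295 bases 0.34. Among all measured members, 16 have an annotated transcript running 200 bases or more past the stem-loop. The length bin of such a member depends on where the annotation ends. The median of all genes in each bin of length and then of GC content was subtracted, and the median over all genes was added back. After this correction the members' median was 0.27 and that of all genes -0.06, a difference of 0.34. On that scale 9 of 56 members were called higher (16.1%) and 4 lower (7.14%), where 13.1% and 12.6% of all genes were. The part of length and GC in the histone difference was not tested further.

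**Figure D2:**
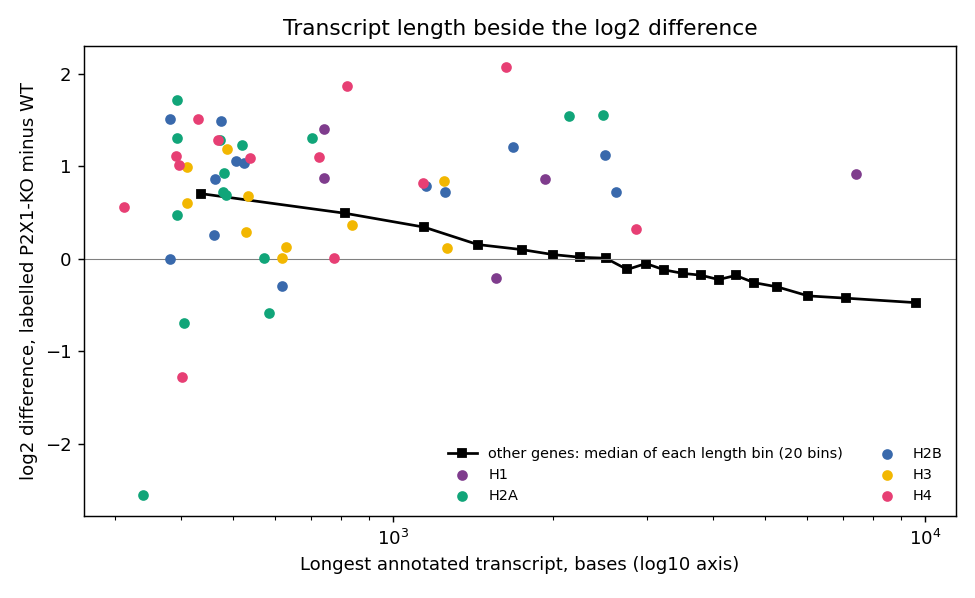
The log2 difference between the libraries labelled P2X1-KO and WT (vertical axis) against the length of the longest annotated transcript in bases (log10 axis), for the 56 measured members coloured by class and for other genes as the median of each of 20 length bins (black squares). The black line runs down from 0.70 in the shortest bin to -0.48 in the longest. Of the 23 members longer than the shortest bin, 18 lie above the median of their own bin. Member lengths include any annotated bases past the stem-loop.

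Marker genes of other cell types also differed between the libraries. The summed level of 7 monocyte and macrophage markers was 5194 CPM in the library labelled P2X1-KO and 350 CPM in the library labelled WT, and all 7 were called higher. For 7 markers of maturing neutrophils the sums were 6544 and 2292 CPM in the same order, with 7 called higher. Eosinophil and mast cell markers summed to 226 and 40.3 CPM, with 3 of 4 measured called higher and Ear1 at 0 in both. Mcpt8, the fourth measured, went the other way, at 23.0 CPM in the library labelled P2X1-KO and 34.0 CPM in the library labelled WT (ratio 0.676, 0.572 to 0.796). Fibroblast markers summed to 203 and 1.92 CPM, with Col1a1, Col1a2 and Col3a1 higher and Pdgfra and Dcn at 0 in both. Of the same list, Cxcl12 had 0 counts in the library labelled P2X1-KO and 14 in the library labelled WT, and Lepr had 0 and 1. B cell markers summed to 49.6 and 16.6 CPM, nearly all from Cd79b, with Ms4a1, Ebf1 and Pax5 at 0 in both. T cell markers summed to 1.13 and 2.18 CPM and erythroid markers to 2.14 and 0.962 CPM. Their part in the histone difference was not tested.

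H4 had the highest ratio of summed counts among the classes, with an interval that overlapped that of H2A. The 13 H4 genes encode 1 identical protein, so their summed count is the measure of H4 message. It was 965 counts (109 CPM) in the library labelled P2X1-KO and 744 counts (47.7 CPM) in the library labelled WT, a ratio of 2.28 (2.07 to 2.51). Of 13 measured H4 genes, 8 were called higher and 1 lower, where 15.5% and 14.0% of all genes were. The median log2 difference of H4 was 1.09. Hist2h4, in the chromosome 3 group, had 50 counts in the library labelled P2X1-KO and 15 in the library labelled WT, a ratio of 5.85 (3.23 to 11.2). Hist1h4c had 130 and 57 counts in the same order, a ratio of 4.0 (2.91 to 5.57). The whole interval of both lay beyond 2-fold. Little of either transcript is shared, at 1.01% of 50-base words for Hist2h4 and 19.6% for Hist1h4c.

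Hist1h4i was the most abundant H4 gene, at 271 counts (30.5 CPM) in the library labelled P2X1-KO and 218 counts (14.0 CPM) in the library labelled WT, a ratio of 2.18 (1.82 to 2.62). Hist1h4h had 143 and 99 counts in the same order, a ratio of 2.54 (1.95 to 3.31). The near-identical pair Hist1h4m and Hist1h4n went opposite ways. Hist1h4n had 60 counts in the library labelled P2X1-KO and 32 in the library labelled WT (ratio 3.29, 2.11 to 5.22), whereas Hist1h4m had 7 and 41 (3.34-fold lower, 1.48 to 8.82). Of the 50-base words of the Hist1h4m transcript, 89.8% also occur in Hist1h4n, and reads of the pair could not be told apart there. Their sum was 67 counts in the library labelled P2X1-KO and 73 in the library labelled WT, a ratio of 1.61 (1.14 to 2.28). After the length and GC correction the ratios of Hist1h4h, Hist1h4i and Hist1h4n were 1.32, 1.44 and 1.71, short of a call. Those of Hist2h4 and Hist1h4c were 5.14 and 2.76, still called higher, and that of Hist1h4m was 0.177. The annotated transcripts of Hist2h4 and Hist1h4c run 1257 and 454 bases past the stem-loop, so their corrected ratios depend on the annotation.

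H2A genes were also higher, with members in both directions. Their summed count was 846 (95.2 CPM) in the library labelled P2X1-KO and 712 (45.7 CPM) in the library labelled WT, a ratio of 2.09 (1.89 to 2.31). Of 15 measured, 8 were called higher and 2 lower, where 15.5% and 14.0% of all genes were. The class had a median log2 difference of 0.92. Hist1h2ac, the most abundant, had 205 counts in the library labelled P2X1-KO and 118 in the library labelled WT, a ratio of 3.05 (2.42 to 3.86). Hist1h2ak had 107 and 52 counts in the same order (ratio 3.61, 2.57 to 5.13), with 57.0% of its words shared. Hist3h2a, on chromosome 11, had 40 and 19 (ratio 3.70, 2.09 to 6.76). It overlaps Trim17 on the same strand, which shares 31.5% of its words. These 3 members had intervals that lay wholly above 2-fold. Their ratios after the length and GC correction were 2.99 for Hist1h2ac, 2.13 for Hist1h2ak and 3.59 for Hist3h2a, all still called higher. The annotated transcripts of Hist1h2ac and Hist3h2a run 2010 and 1643 bases past the stem-loop, so their corrected ratios depend on the annotation.

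In the other direction, Hist1h2al had 0 counts in the library labelled P2X1-KO and 38 in the library labelled WT. Against a floor of 3 counts in the library labelled P2X1-KO this was at least 7.22-fold lower, and the exact interval of the counts reaches down to 5.59-fold. GENCODE lists it as a processed pseudogene, far from the main cluster on chromosome 13. Hist1h2ah had 6 counts in the library labelled P2X1-KO and 22 in the library labelled WT, and its interval for the ratio, 0.159 to 1.22, includes 1. Of its words, 92.1% occur in other transcripts. The copies Hist2h2aa1 and Hist2h2aa2 share all their words with other transcripts, and together they had 28 and 67 counts in the order of the libraries above (ratio 0.734, 0.454 to 1.16). Short opposite-strand gene models overlap most H2A genes, and the strand setting of the counting was not given in the sources used here.

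H2B genes had 6 members called higher. The summed H2B count was 1105 (124 CPM) in the library labelled P2X1-KO and 1096 (70.3 CPM) in the library labelled WT, a ratio of 1.77 (1.63 to 1.93). Of 13 measured, these 6 were called higher and 0 lower, where 15.5% and 14.0% of all genes were. The class had a median log2 difference of 0.86. After the length and GC correction the median was 0.42, above the 0.35 of H4 and the 0.16 of H2A. Hist1h2bc, the most abundant, had 398 counts in the library labelled P2X1-KO and 402 in the library labelled WT, a ratio of 1.74 (1.51 to 2.0). Hist1h2bk had 80 and 45 counts in the same order (ratio 3.12, 2.14 to 4.6). Hist1h2bn had 26 and 11 (ratio 4.15, 1.98 to 9.30) and Hist1h2bh 69 and 48 (ratio 2.52, 1.72 to 3.73). Of their words, 74.2% are shared for Hist1h2bk, 86.4% for Hist1h2bn and 18.8% for Hist1h2bh. After the length and GC correction the ratio of Hist1h2bk was 1.62, short of a call, and that of Hist1h2bn 2.45.

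Hist1h2bq, the second most abundant H2B gene by mean CPM, had 113 and 117 counts in the order of the libraries above (ratio 1.70, 1.30 to 2.21). Its words occur in full in Hist1h2br, and the pair together gave a ratio of 1.81 (1.40 to 2.35). Hist1h2bg had 69 counts in the library labelled P2X1-KO and 150 in the library labelled WT, with an interval of 0.598 to 1.08 that includes 1. Below the level for measured genes, Hist1h2bl had 0 counts in the library labelled P2X1-KO and 18 in the library labelled WT, at least 3.42-fold lower against the floor and 2.50-fold at the bound of the exact interval. Of its words, 82.8% are shared.

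H3 genes had the lowest median of the 5 classes. Their summed count was 490 (55.2 CPM) in the library labelled P2X1-KO and 584 (37.5 CPM) in the library labelled WT, a ratio of 1.47 (1.30 to 1.66). Of 10 measured, 2 were called higher and 0 lower, with a median log2 difference of 0.48. Called higher among all genes were 15.5%, close to the H3 share, and called lower were 14.0%. After the length and GC correction the median of H3 had the opposite sign, at -0.20. Hist2h3b had 38 counts in the library labelled P2X1-KO and 25 in the library labelled WT (ratio 2.67, 1.57 to 4.61), but all its words lie in the opposite-strand gene Gm20628. Hist1h3i had 68 and 56 counts in the same order (ratio 2.13, 1.47 to 3.09), with 87.6% of its words shared. Hist1h3e, the most abundant, had 102 and 138 (ratio 1.30, 0.994 to 1.69), and Hist1h3a had 81 and 86 (ratio 1.65, 1.21 to 2.27). The length and GC correction took both ratios below 1, to 0.854 for Hist1h3e and 0.976 for Hist1h3a. The median log2 difference of all genes was -0.06 on that scale. Neither gene called higher kept its call, at 1.26 for Hist1h3i and 1.57 for Hist2h3b.

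Linker histones held 1 gene on the other side of 1. Hist1h1c had 552 counts (62.1 CPM) in the library labelled P2X1-KO and 1121 counts (71.9 CPM) in the library labelled WT. It was 1.16-fold lower (1.04 to 1.28), and it held the largest count of any member in both libraries. The other 4 measured linker genes had ratios between 1.85 and 2.80. Of 5 measured linker genes, 1 was called higher and 0 lower, where 15.5% and 14.0% of all genes were. The class had a median log2 difference of 0.87. The linker gene called higher was Hist1h1a. Hist1h1a had 123 counts in the library labelled P2X1-KO and 77 in the library labelled WT (ratio 2.80, 2.09 to 3.78). Hist1h1d had 123 and 111 counts in the same order (ratio 1.95, 1.49 to 2.54), and Hist1h1e had 149 and 141 (ratio 1.85, 1.46 to 2.35). Hist1h1b had 66 and 60 counts (ratio 1.93, 1.34 to 2.79). Linker genes differ from each other in sequence, and no word of Hist1h1a or Hist1h1b occurs in another transcript. With Hist1h1c, the summed H1 ratio was 1.18 (1.08 to 1.27), and without it 2.07 (1.80 to 2.37). The H1 median was 0.72 after the length and GC correction. The ratio of Hist1h1a was then 1.84, short of a call, and that of Hist1h1d 2.58, past it. Annotated transcripts of Hist1h1c, Hist1h1d and Hist1h1e run 840, 4884 and 1153 bases past the stem-loop, so these corrected values depend on the annotation. The testis linker gene Hist1h1t had 0 counts in the library labelled P2X1-KO and 2 in the library labelled WT.

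**Figure D3:**
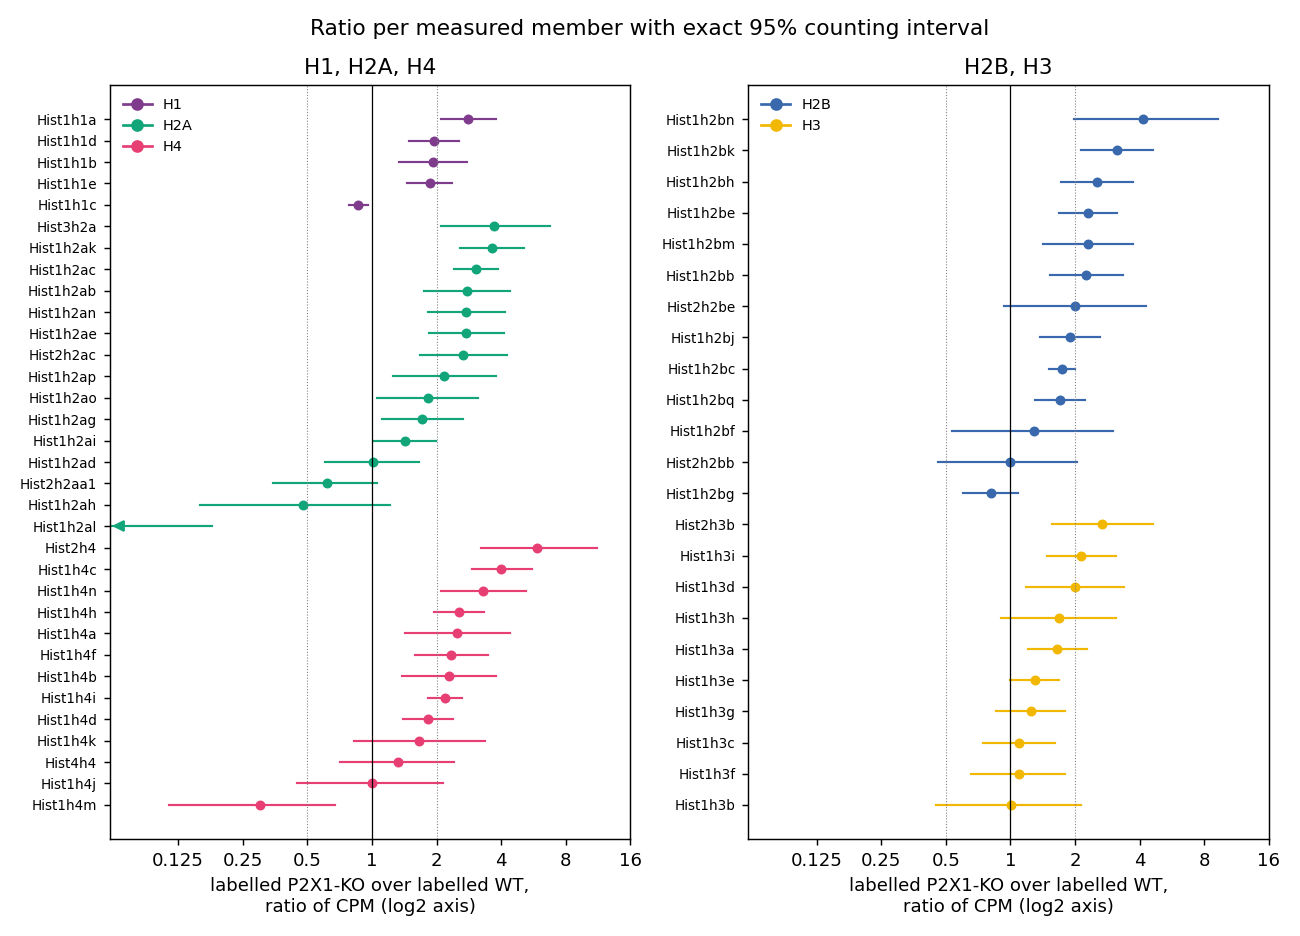
Ratio of CPM in the library labelled P2X1-KO over the library labelled WT (log2 axis) for each measured member, with its exact 95% counting interval. The left panel has H1, H2A and H4, the right panel H2B and H3, dotted lines mark 2-fold, and the arrow at Hist1h2al marks 0 counts in the library labelled P2X1-KO. Hist2h4 stands highest at 5.85, and Hist1h1c has the narrowest interval.

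The make-up of the histone counts differed between the libraries, a comparison that no library scaling can change. Shares do not remove the trend with transcript length, and its part was not tested. Measured members had a median length of 1560 bases in H1, 482 in H2A, 524 in H2B, 577 in H3 and 539 in H4. H1 took 22.9% of histone counts in the library labelled P2X1-KO (exact 95% interval 21.7 to 24.2) and 32.5% in the library labelled WT (31.2 to 33.9). Hist1h1c alone took 12.5% (11.5 to 13.5) and 24.1% (22.9 to 25.4) in the same order. H4 took 21.8% (20.6 to 23.1) in the library labelled P2X1-KO and 16% (15.0 to 17.1) in the library labelled WT. For H2A the shares were 19.1% (18.0 to 20.3) and 15.3% (14.3 to 16.4) in that order, again with separate intervals. The intervals of H2B, at 25% and 23.6%, and of H3, at 11.1% and 12.6%, overlapped. With Hist1h1c left out, H1 took 11.9% in the library labelled P2X1-KO and 11.1% in the library labelled WT, with overlapping intervals. The H2A intervals then overlapped too, at 21.9% (20.6 to 23.2) in the library labelled P2X1-KO and 20.2% (18.9 to 21.6) in the library labelled WT. H2B turned in direction, at 28.6% (27.2 to 30.0) and 31.1% (29.5 to 32.6) in that order, with intervals that still overlapped. In that count H3 took 12.7% (11.6 to 13.8) and 16.6% (15.3 to 17.8), and H4 took 25% (23.6 to 26.4) and 21.1% (19.8 to 22.5).

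**Figure D4:**
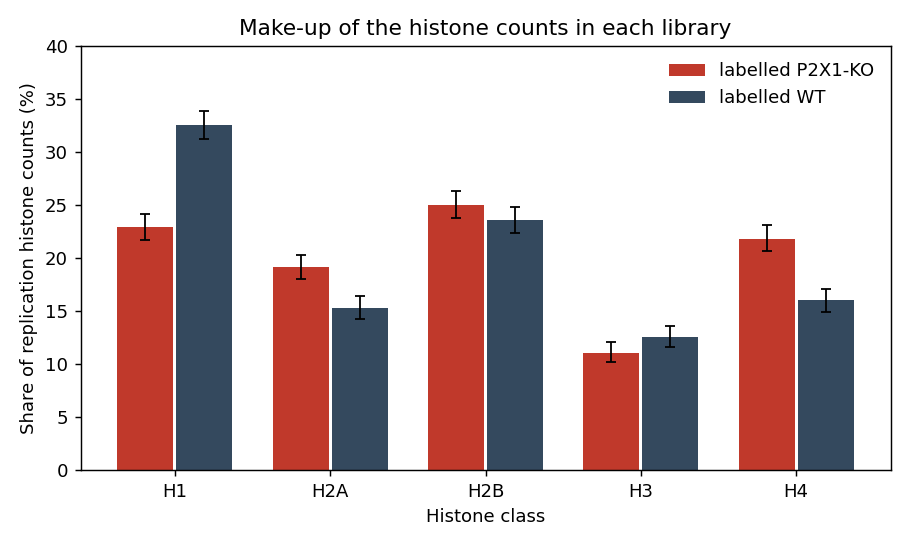
Share of all replication histone counts taken by each class in the library labelled P2X1-KO (red, left bar) and the library labelled WT (dark, right bar), with exact 95% binomial intervals. H1 stands at 22.9% in the library labelled P2X1-KO against 32.5% in the library labelled WT, and H4 stands at 21.8% against 16%.

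Levels of different genes were compared per kilobase of the longest annotated coding transcript. On that scale Hist1h4i was highest in the library labelled P2X1-KO, at 42.0 CPM per kilobase, followed by Hist1h1c at 39.8, Hist1h2bc at 38.8, Hist1h4h at 34.3 and Hist1h2ak at 30.7. In the library labelled WT the order began with Hist1h1c at 46.1 CPM per kilobase, followed by Hist1h2bc at 22.3, Hist1h4i at 19.2, Hist1h2bg at 15.6 and Hist1h2ai at 13.9. Annotated ends reach from the coding end to several kilobases beyond it, as for Hist1h1d with 7425 bases, so a per-length level depends on the annotation.

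Members were also grouped by how the annotated transcript ends. Members whose transcript stops within 200 bases after the stem-loop had a median of 0.89 over 24 measured genes, and those running at least 200 bases past it had 0.88 over 16. The summed ratio was 1.74 (1.61 to 1.89) in the first set and 1.53 (1.44 to 1.62) in the second, which holds Hist1h1c. The 15 measured members with no stem-loop in the annotated transcript had a median of 0.79. Members on chromosome 13 had a median of 0.86 over 48 measured genes, and those on chromosome 3 had 0.95 over 6.

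Shared sequence was common among members and limits the values of single genes. A transcript's words of 50 bases were searched on both strands in every other annotated gene's transcripts. For 36 members at least 50% of the words were shared, and for 34 members fewer. The 28 measured members under 50% had a median log2 difference of 0.97, with 14 called higher and 0 lower. The 28 at or above 50% had a median of 0.70, with 11 higher and 3 lower. Over all measured genes of the table, 15.5% were called higher and 14.0% lower. All 3 measured members called lower were at or above 50%. Products are shared as well. By the annotation, the 13 H4 genes code for 1 protein, the 12 H3 genes for 3 and the 18 coding H2A genes for 9. Of the H3 products, that of Hist2h3c1 stands apart with an annotated coding length of 546 bases, where the other H3 genes have 411.

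Many H2A and H2B genes stand head to head and share a promoter region. Of 15 neighbouring pairs with starts under 1 kilobase apart that point away from each other, 14 paired an H2A with an H2B gene. In 8 of these both genes were measured, and the intervals of their ratios overlapped in 5. Hist1h2ak and Hist1h2bn, with starts 296 bases apart, had ratios of 3.61 and 4.15. Hist1h2ac and Hist1h2bc, 251 bases apart, differed, at 3.05 (2.42 to 3.86) and 1.74 (1.51 to 2.0). In the pair Hist1h2ae and Hist1h2bg the ratios were 2.73 (1.84 to 4.11) and 0.807 (0.598 to 1.08). Hist1h2ah and Hist1h2bk, 302 bases apart, were called in opposite directions, at 0.479 (0.159 to 1.22) and 3.12 (2.14 to 4.6).

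Promoters are shown for the most abundant H2A gene, the most abundant H4 gene and the linker gene that differed from its class. They run from 250 bases before to 50 bases after the gene's start (RefSeq, GRCm38.p6), 5' to 3' on the gene's strand, and 61 members had such an entry. Capitals mark CCAAT, the binding motif of NF-Y, the octamer ATTTGCAT, bound by OCT factors, and TATAAA, each searched on both strands and reading ATTGG, ATGCAAAT and TTTATA where the match lies on the other strand.
Hist1h2ac (chr13:23683910-23684209, minus strand): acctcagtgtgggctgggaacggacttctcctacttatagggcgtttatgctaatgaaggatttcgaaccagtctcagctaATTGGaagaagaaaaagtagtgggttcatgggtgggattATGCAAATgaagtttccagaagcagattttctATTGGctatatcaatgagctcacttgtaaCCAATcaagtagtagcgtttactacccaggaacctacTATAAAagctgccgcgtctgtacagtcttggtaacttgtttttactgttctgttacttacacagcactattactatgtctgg
Hist1h4i (chr13:22041313-22041612, minus strand): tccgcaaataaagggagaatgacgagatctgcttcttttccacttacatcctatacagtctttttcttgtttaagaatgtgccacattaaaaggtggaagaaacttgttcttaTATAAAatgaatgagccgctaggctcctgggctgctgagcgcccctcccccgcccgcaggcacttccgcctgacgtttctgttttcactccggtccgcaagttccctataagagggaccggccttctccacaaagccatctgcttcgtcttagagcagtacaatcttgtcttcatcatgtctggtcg
Hist1h1c (chr13:23738557-23738856, plus strand): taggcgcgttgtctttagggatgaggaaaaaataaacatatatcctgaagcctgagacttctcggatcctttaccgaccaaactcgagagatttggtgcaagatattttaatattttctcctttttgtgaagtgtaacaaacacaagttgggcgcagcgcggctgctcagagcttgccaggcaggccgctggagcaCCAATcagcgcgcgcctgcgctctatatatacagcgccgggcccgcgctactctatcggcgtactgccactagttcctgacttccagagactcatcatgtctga
CCAAT stood in 52 of the 61 promoters (85.2%) and in 37.4% of the 32817 promoters of the table. It was present in each H1, H2A, H2B and H3 promoter examined and in 3 of 12 H4 promoters. TATAAA stood in 55.7% of members' promoters and in 13.6% of all. The octamer was found in 7 of 18 H2A and 6 of 16 H2B promoters, in 0 of those of H1, H3 and H4, and in 1.74% of all. A match describes the letters of the window and not binding.

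Among genes that copy DNA or handle histones, few or none were called higher. Of 35 DNA replication genes, 0 were called higher and 0 lower (median log2 difference -0.05). Of all genes, 15.5% were called higher and 14.0% lower (median -0.06). Transcript length was not compared between these genes and the histone genes, and its part was not tested. Pcna, the sliding clamp gene, was 1.31-fold higher (1.23 to 1.38), Tyms 1.44-fold higher (1.30 to 1.60) and Gins4 1.47-fold higher (1.32 to 1.65). Cdk2, the S-phase kinase gene, was 1.98-fold lower, and Cdt1, a licensing factor gene, 1.70-fold lower. Of 31 measured histone chaperone and import genes, 0 were called higher and 2 lower (median -0.31). Those 2 were Asf1a, encoding an H3-H4 chaperone, at 3.02-fold lower (2.50 to 3.68), and Hira, a chaperone gene of H3.3, at 8 counts in the library labelled P2X1-KO and 38 in the library labelled WT. Asf1b was 1.65-fold higher (1.49 to 1.82) and Dnajc9 1.74-fold higher (1.59 to 1.89).

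Of 30 genes that act on histone transcription or 3' end formation, 1 was called higher and 5 lower (median -0.26). Over all genes the shares were 15.5% and 14.0%. Slbp, encoding stem-loop binding protein, had 70.9 CPM in the library labelled P2X1-KO and 73.5 CPM in the library labelled WT, a ratio of 0.965 (0.874 to 1.06). Npat, the cyclin E target that activates histone genes, was 2.0-fold lower, at 17.8 CPM in the library labelled P2X1-KO and 35.6 CPM in the library labelled WT. Coil, encoding coilin of Cajal bodies, was 2.86-fold lower, Cstf2 2.71-fold lower and Cstf2t 2.77-fold lower. Nelfe had 7 counts in the library labelled P2X1-KO and 45 in the library labelled WT. Zfp473, a zinc finger gene linked to the U7 particle, was 3.07-fold higher (1.61 to 6.08), with 28 and 16 counts in the same order.

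Histone genes outside the rule, mostly replacement variants with polyadenylated messages made outside S phase as well, had a median log2 difference of 0.51 over 12 measured genes. H2afx, the variant phosphorylated at DNA breaks, was 2.38-fold higher (2.20 to 2.56), H2afv 2.13-fold higher (1.93 to 2.35) and H1fx 2.02-fold higher (1.34 to 3.07). H2afy2, encoding a macroH2A, was called lower, at 19 counts in the library labelled P2X1-KO and 1029 in the library labelled WT (30.9-fold, 19.7 to 51.5). The H3.3 genes H3f3a and H3f3b were 1.54-fold and 1.22-fold higher. H3f3a stood at 717 CPM in the library labelled P2X1-KO and 465 CPM in the library labelled WT. The centromere variant gene Cenpa was 1.37-fold higher.

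Other RNAs that lack a poly(A) tail were mostly higher. Of 7 measured small RNAs of this kind, 5 were called higher and 1 lower (median log2 difference 1.41). The lower one was the spliceosomal Rnu12, at 6 counts in the library labelled P2X1-KO and 25 in the library labelled WT. Of all genes, 15.5% were called higher and 14.0% lower. Among other genes of 54 to 625 bases, 39.1% were called higher and 11.5% lower (median 0.70). The part of length in these small RNAs was not tested. Rn7sk, the RNA that restrains the elongation factor P-TEFb, had 658 counts in the library labelled P2X1-KO and 238 in the library labelled WT, a ratio of 4.85 (4.18 to 5.65). Rmrp and Rpph1, RNA parts of ribonucleases MRP and P, had ratios of 2.79 (2.15 to 3.63) and 2.36 (1.98 to 2.82). The signal recognition particle RNAs Rn7s1 and Rn7s2 had ratios of 3.57 and 4.70. Rnu7, the U7 RNA that base pairs with histone precursors, had 0 counts in the library labelled P2X1-KO and 13 in the library labelled WT. The labels give total RNA and standard library preparation with no word on poly(A) selection, and the part of RNA capture in the histone difference was not tested.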

How the data were processed

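The 2 libraries came from sorted mouse leukaemia cells. The deposited values are raw counts of reads for each symbol, made by the authors with no normalization. The submitters' processing notes name HISAT2 2.0.4 for alignment and mm10 as the build. The counting tool, annotation, strand setting and treatment of reads with several matches were not given in the sources used here. If such reads were dropped, near-identical histone genes lost counts in both libraries, and if they were split, copies exchanged counts.

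TMM scaling (edgeR 4.0.16, R 4.3.3) gave effective sizes of 8882591 for the library labelled P2X1-KO and 15591519 for the library labelled WT. Ratios are those of CPM, with exact Clopper-Pearson 95% intervals given the summed count, and shares have exact binomial intervals. Intervals and floors (3 counts, equal to 0.338 CPM in the library labelled P2X1-KO and 0.192 CPM in the library labelled WT) cover counting error only. A log2 difference uses a pseudocount of 0.5 CPM, which understates differences of low genes. No p-value was computed, since each side has 1 library. A call means at least 2-fold apart at a mean of at least 1 CPM. Calls and medians were set beside the same over all genes. The ratio and its interval were also run on simulated counts that carried counting error alone. Such counts cannot test replicate spread, a length trend or shared reads.

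All 70 members matched GENCODE M21. Length and GC content were those of the longest annotated transcript, known for 12390 of the 13382 genes (92.6%). Members given in full were, per class, the 2 most abundant and up to 3 in each direction by the interval bound nearest to no change, 23 genes in all. Any other member could be named. The alternatives were other scalings (total counts, upper quartile, DESeq2 1.42.0 size factors), level filters, pseudocounts, leaving out pseudogenes, leaving out members with much shared sequence, and a length and GC correction. Members, lists and rules were chosen with earlier results of these data known.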

Additional observations from a re-analysis of the deposited data

How the results depend on the processing

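No paired analysis was possible because there was 1 library per group. The summed CPM ratio of the histone genes, 1.67, was 1.48 under total-count scaling, 1.77 under upper-quartile scaling and 1.92 without Hist1h1c, a choice made after seeing the data. Total-count scaling moved the median log2 difference of all genes to -0.23 and upper-quartile scaling to 0.02. The members' median less that of all genes was 0.91 to 0.92 under these scalings. Of all genes, 12.7% were called higher and 18.4% lower with total counts, against 17.3% and 12.3% with upper quartiles. The ratio of Hist1h1c was 0.764 and 0.916 under these scalings, below 1 in both.

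The number of members called higher, 25 of 56, was 13 of 27 at a mean of 5 CPM. Without members sharing at least 50% of their words it was 14 of 28. These were 44.6%, 48.1% and 50% of the members tested, where 15.5%, 12.1% and 15.5% of all genes were called higher. In the last 2 settings 0 members were called lower, where 10.6% and 14.0% of all genes were. With no level filter, 7 of 67 were called lower (10.4%), where 31.6% of all genes were. After the length and GC correction 9 of 56 were called higher (16.1%), where 13.1% of all genes were. The medians were then 0.27 for all members, 0.16 for H2A, 0.42 for H2B, 0.35 for H4 and 0.72 for H1. The H3 median reversed to -0.20. The cause was not tested. Of the 23 members given in full, 13 moved beyond their counting interval under that correction and 1 did so under total-count scaling. Genes with few counts have wide intervals, as for Hist2h2ab at 10 counts in the library labelled P2X1-KO and 1 in the library labelled WT (ratio 17.6, 2.50 to 762).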
